A study of Rattus norvegicus with 8 samples.

Results

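Transcripts of protein folding stress and amino acid stress were compared between kidneys that had lost their partner and kidneys that had not. The set holds 40 genes chosen by name for their function, 12 of the ATF4 arm, 15 of the endoplasmic reticulum and 13 of the heat shock system. Of these, 34 had a probe that could be matched by name, and 32 had a probe well above background, out of 19865 genes tested. All 32 were well above background on 8 of 8 arrays, so none entered through its level in a single group. Trib3, Xbp1, Manf, Edem1, Hspa1b and Dnajb1 were not matched and are not analysed here.

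All rats were male, of the inbred strain F344/NSlc and 10 weeks old, and the right kidney was sampled. In 4 of them unilateral nephrectomy had left that kidney alone, and 4 had a sham operation, which left both, and the study asks how the remaining kidney adapts. The source labels give 2 days after the operation for nephrectomized rats and 1 day for sham rats, while the series text gives 2 days, so that operation and interval cannot be told apart. Total RNA of each rat went, with a Cy3 label, onto a separate 1-colour array. The labels do not say which portion of the kidney was taken.

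Cells answer unfolded protein in the endoplasmic reticulum through 3 sensors, PERK, IRE1 and ATF6. PERK, like the kinase GCN2 that senses uncharged tRNA, phosphorylates the initiation factor eIF2, which slows translation in general but favours that of ATF4, a transcription factor of amino acid supply genes. IRE1, through the spliced form of XBP1, and ATF6 induce chaperones and degradation factors of the endoplasmic reticulum. Unfolded protein in the cytosol instead releases HSF1, which binds heat shock elements and induces the Hsp70 and Hsp40 chaperones. Tubule cells of the kidney make and recycle large amounts of membrane and secreted protein, and all of these arms are known to respond to injury there.

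Promoters of some members in which a searched element was found are shown first, because the 3 arms are known by the elements their factors bind. Sequences of 300 bases around the RefSeq start (assembly GRCr8) were searched on both strands in 11 of 12 ATF4 arm members, 12 of 15 endoplasmic reticulum members and 10 of 13 heat shock members. The endoplasmic reticulum stress element was searched as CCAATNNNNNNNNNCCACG, the shorter form ERSE-II as ATTGGNCCACG, the unfolded protein response element as TGACGTGG, the C/EBP-ATF response element as TGATGNAA and the heat shock element as GAANNTTCNNGAA. ERSE and ERSE-II hold the same outer blocks, with the CCAAT block turned round, and the end of the unfolded protein response element is the reverse complement of CCACG. Capitals in the first 3 promoters mark the ERSE-II of Herpud1 (chr19:10614658-10614957, minus strand) and the ERSE of Hspa5 (chr3:38452766-38453065, plus strand) and of Creld2 (chr7:121789134-121789433, plus strand). In Creld2 the element lies on the strand opposite the gene, so that its reverse complement is in capitals. Those in the last 2 mark the heat shock elements of Dnaja1 (chr5:60638154-60638453, plus strand) and Hspa8 (chr8:50080264-50080563, plus strand).
Herpud1: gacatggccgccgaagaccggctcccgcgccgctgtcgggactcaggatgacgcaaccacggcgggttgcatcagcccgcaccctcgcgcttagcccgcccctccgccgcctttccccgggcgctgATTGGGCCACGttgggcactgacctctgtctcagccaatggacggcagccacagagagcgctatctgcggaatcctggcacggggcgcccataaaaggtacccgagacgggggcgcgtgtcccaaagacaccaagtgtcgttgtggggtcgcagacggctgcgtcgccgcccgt
Hspa5: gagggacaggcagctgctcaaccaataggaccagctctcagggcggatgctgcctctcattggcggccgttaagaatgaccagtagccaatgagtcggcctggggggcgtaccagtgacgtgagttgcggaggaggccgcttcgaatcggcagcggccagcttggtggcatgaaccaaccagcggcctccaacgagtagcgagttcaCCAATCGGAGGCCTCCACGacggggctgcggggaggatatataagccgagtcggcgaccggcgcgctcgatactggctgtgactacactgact
Creld2: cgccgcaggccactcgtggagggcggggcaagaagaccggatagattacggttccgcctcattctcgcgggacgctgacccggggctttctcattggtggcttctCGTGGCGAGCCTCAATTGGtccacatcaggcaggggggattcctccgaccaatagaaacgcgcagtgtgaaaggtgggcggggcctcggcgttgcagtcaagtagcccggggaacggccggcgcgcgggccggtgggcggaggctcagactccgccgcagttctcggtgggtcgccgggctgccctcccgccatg
Dnaja1: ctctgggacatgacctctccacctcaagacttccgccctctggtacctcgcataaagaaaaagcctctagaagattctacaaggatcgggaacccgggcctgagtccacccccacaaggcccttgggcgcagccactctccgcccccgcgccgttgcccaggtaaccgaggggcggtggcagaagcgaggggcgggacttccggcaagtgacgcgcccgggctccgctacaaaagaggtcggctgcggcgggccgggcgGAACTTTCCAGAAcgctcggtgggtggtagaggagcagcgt
Hspa8: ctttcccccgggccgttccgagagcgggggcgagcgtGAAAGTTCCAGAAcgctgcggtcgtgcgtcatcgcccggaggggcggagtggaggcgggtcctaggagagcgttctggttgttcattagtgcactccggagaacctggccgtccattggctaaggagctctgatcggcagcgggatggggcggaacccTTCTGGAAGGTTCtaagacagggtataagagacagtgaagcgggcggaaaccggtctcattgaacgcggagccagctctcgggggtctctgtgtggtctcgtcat

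ERSE was present in 7 of the 12 endoplasmic reticulum promoters, in 0 of the 11 ATF4 arm promoters and in 0 of the 10 heat shock promoters, against 22 of all 33469 rat promoters (0.0657%). The element began 43 bases before the start in Hspa5 and 145 bases before it in Creld2. The other carriers are shown with the outer blocks in capitals, each read on the strand that holds the CCAAT form.
Hsp90b1, chr7:23012451-23012469, minus strand: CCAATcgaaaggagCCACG
Hsp90b1, chr7:23012347-23012365, plus strand: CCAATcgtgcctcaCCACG
Calr, chr19:40213135-40213153, minus strand: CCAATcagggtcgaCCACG
Canx, chr10:35158069-35158087, minus strand: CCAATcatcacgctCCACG
Dnajc3, chr15:102432534-102432552, plus strand: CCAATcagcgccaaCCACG
Xbp1, chr14:84604558-84604576, plus strand: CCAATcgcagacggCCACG
ERSE-II was found in Herpud1, beginning 124 bases before the start, and in 17 of all promoters (0.0508%). The heat shock element was found in 5 of the 10 heat shock promoters, against 267 of all promoters (0.798%). Besides Dnaja1 and Hspa8 these were Hsph1 and the pair Hspe1 and Hspd1, which lie head to head and share one promoter with its overlapping elements. The C/EBP-ATF element was found in Trib3, Aars1 and Herpud1, and in 3.98% of all promoters. The unfolded protein response element was found in Bag3 among the members and in 0.595% of all promoters. Atf4, Ddit3 and Dnajb9, whose groups did not overlap in the results below, were not among the carriers of any of these elements. A match is a run of letters and not a measured binding site.

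Each slide carried 2 nephrectomized and 2 sham rats, so that every difference could also be read within a slide. Between 54.8% (sham rat 1) and 65.5% (nephrectomized rat 4) of 41012 gene probes were well above background, and the correlation between arrays, taken across genes and so not over replicates, was 0.984 to 0.996. The second principal component (21.6% of the variance) separated sham rat 1 from the remaining 7. Of 52 markers of kidney and other cell types, held in 11 lists, 38 were measured. Of these 38, 0 passed the test, where 3.59% of all genes did. Kidney markers were present, and 0 of 4 adrenal cortex markers were measured. The 7 proximal tubule markers summed to 513 to 539 times the array's 75th percentile in nephrectomized rats and to 544 to 564 times in sham rats, which did not overlap. Of the 4 plasma cell markers Jchain, Mzb1 and Tnfrsf17 were not measured, so plasma cells could not be followed. Sdc1, the only one measured, stood at 4.76 to 5.62 in nephrectomized rats and 3.47 to 4.63 in sham rats on the same scale. The part of these cell types in the results was not tested, and in whole tissue fewer cells of a type and less RNA per cell cannot be told apart. Early genes of tissue handling, with 6 of 7 measured, overlapped between groups (summed level 15.6 to 16.8 in nephrectomized rats and 15.0 to 17.0 in sham rats). All values are log2 intensities relative to the array's 75th percentile, so they compare a gene with the rest of the same sample's mRNA.

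On this scale members of each of the 3 arms lay on both sides of 0, and where the rats separated completely the nephrectomized ones were lower. On the gene's brightest probe, 0 of the 32 measured members passed an adjusted p of 0.05 (limma, Benjamini-Hochberg over all genes), where 3.59% of all genes did. A second probe of Herpud1, a degradation factor of the endoplasmic reticulum, fell by 0.70 on the log2 scale, to 0.614 of the sham level, and passed. That probe was 1 of 48 member probes tested, added after its values were seen, where 3.24% of all probes passed. Of the 32 members, 15 had positive and 17 had negative log2 fold changes, with a median of -0.04, against 9909 and 9956 of all genes and a median of -0.0004. With 1 outlying spot of the brighter Herpud1 probe missing, 14 members were positive and 18 negative, with a median of -0.05. The median size of the difference regardless of sign was 0.10 for the members and 0.11 for all genes. At an unadjusted p of 0.05, 0 members were higher and 6 were lower, where 7.6% of all genes were lower and 17.7% passed in either direction. In 5 members every nephrectomized rat lay below every sham rat, in 0 every one lay above, and among all genes 5.07% and 7.56% did so.

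**Figure D1:**
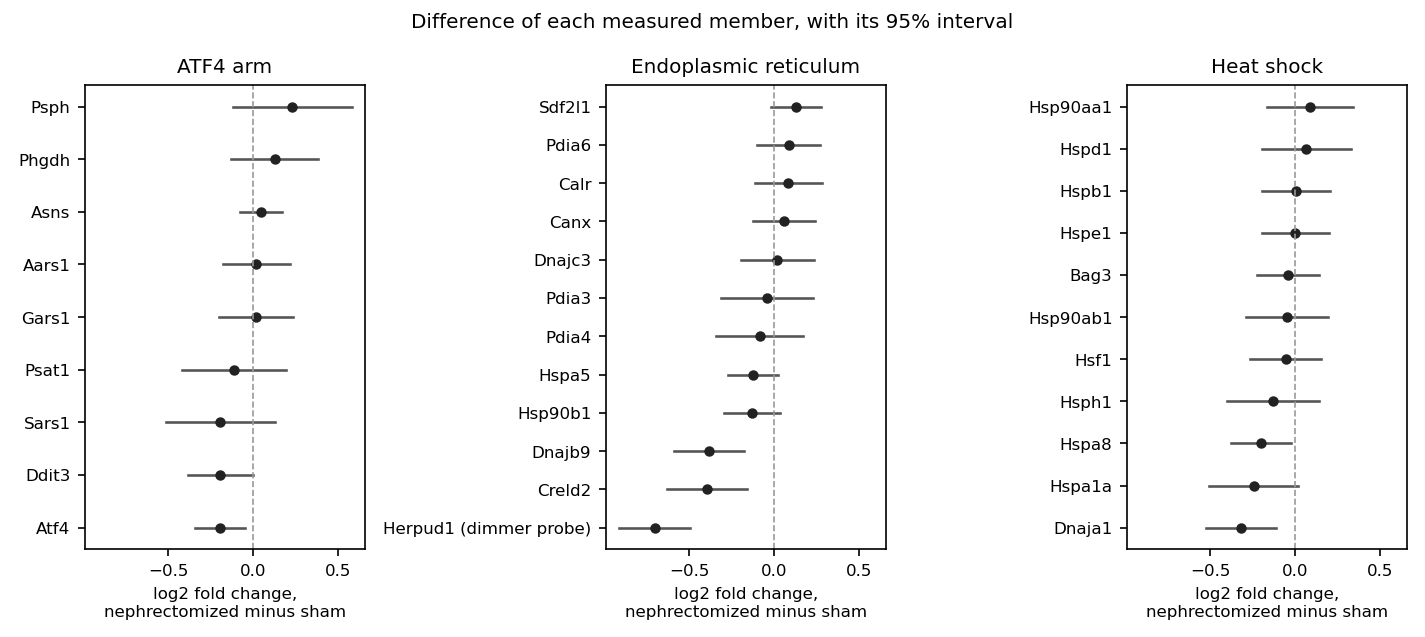
Log2 fold change of each measured member, nephrectomized minus sham, with its 95% interval (n = 4 rats per group) in panels for the ATF4 arm, the endoplasmic reticulum and the heat shock group. Herpud1 is drawn by its dimmer probe at -0.70, and the intervals of Atf4, Ddit3, Dnajb9, Creld2, Dnaja1 and Hspa8 also lie wholly below 0.

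The intervals show what size of change the arrays could have missed. Apart from Herpud1, 29 of 31 members had a 95% interval that stayed within 1.5-fold in both directions. The exceptions were Dnajb9 and Creld2, whose lower bounds were 0.664 and 0.645 of the sham level. The highest upper bound was that of Psph at 1.498-fold, so a rise beyond 1.5-fold lay outside the interval of each of these 31 genes. Each interval holds for its gene alone and not for all 31 together.

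In the ATF4 arm, 0 of 9 measured members passed, where 3.59% of all genes did. Before adjustment, 0 were higher and 2 lower at a p of 0.05, where 7.6% of all genes were lower. In this arm 5 members had positive and 4 had negative log2 fold changes, and the median was 0.02 (-0.09 on slide 1 and 0.05 on slide 2). Atf4, the transcription factor of the arm, had 4.37, 4.24, 4.29 and 4.34 in nephrectomized rats 1 to 4, against 4.54, 4.60, 4.49 and 4.39 in sham rats 1 to 4. Every nephrectomized rat was below every sham rat, and the nearest pair was nephrectomized rat 1 and sham rat 4. The log2 fold change was -0.20 (0.873 of the sham level, 95% interval 0.788 to 0.967), and the adjusted p of 0.155 by limma missed the threshold. ATF4 is controlled mainly at translation, so its mRNA is not a measure of its protein.

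Ddit3 encodes CHOP, a factor that ATF4 induces and that promotes cell death in lasting stress. It had 0.34, 0.33, 0.21 and 0.33 in nephrectomized rats, against 0.71, 0.44, 0.46 and 0.38 in sham rats. Here too the groups did not overlap, with sham rat 1 standing highest. The log2 fold change was -0.19 (0.874 of the sham level, 95% interval 0.765 to 0.997, adjusted p = 0.272 by limma).

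Of the 3 enzymes of serine synthesis, which ATF4 induces in cultured cells, 2 had positive values, and none passed. Psph, the phosphatase of the last step, had 2.76, 2.62, 3.32 and 3.11 in nephrectomized rats, against 2.57, 2.67, 2.77 and 2.89 in sham rats. Nephrectomized rats 3 and 4, both on slide 2, were above all sham rats, whereas rats 1 and 2 lay among them. The log2 fold change was 0.23 (1.17-fold, 95% interval 0.92 to 1.498, adjusted p = 0.491 by limma), with 0.07 on slide 1 and 0.39 on slide 2. Phgdh, the enzyme of the first step, had 6.71, 6.90, 7.23 and 7.04 in nephrectomized rats, against 6.73, 6.81, 6.88 and 6.96 in sham rats. Its rats on slide 2 were again the high ones, with a log2 fold change of 0.13 (adjusted p = 0.619 by limma), 0.03 on slide 1 and 0.22 on slide 2. Psat1, the transaminase between them, overlapped between groups (-2.06 to -1.47 in nephrectomized rats and -1.70 to -1.40 in sham rats, log2 fold change -0.11).

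Asparagine synthetase, Asns, is a standard readout of amino acid shortage. It had 0.26, 0.28, 0.25 and 0.32 in nephrectomized rats, against 0.21, 0.25, 0.29 and 0.17 in sham rats. These ranges overlapped, and the log2 fold change of 0.05 had a 95% interval of 0.949 to 1.13-fold. The tRNA synthetases among the members, which load amino acids on tRNA, did not separate the groups either. Aars1, for alanine, had 2.67, 2.61, 2.98 and 2.66 in nephrectomized rats, against 2.77, 2.69, 2.66 and 2.72 in sham rats, with nephrectomized rat 3 alone above the rest. Sars1, for serine, had 0.87, 0.66, 1.34 and 0.92 in nephrectomized rats, against 1.04, 1.13, 1.07 and 1.32 in sham rats. Nephrectomized rat 3 was again the highest, the other 3 lay below all sham rats, and the log2 fold change was -0.19 (adjusted p = 0.531 by limma). Gars1, for glycine, differed by 0.02 on its brightest probe and 0.04 on its other one. The amino acid transporters Slc7a11 and Slc7a5 were well above background on 0 of 8 arrays, and no fold change is given for them.

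Among the endoplasmic reticulum members, 0 of 12 passed on the brightest probe, where 3.59% of all genes did. Before adjustment, 0 were higher and 2 lower at a p of 0.05, where 7.6% of all genes were lower. In this group 6 members had positive and 6 had negative log2 fold changes, and the median was -0.01 (-0.02 on slide 1 and -0.07 on slide 2). These counts take Herpud1 as positive by its brighter probe, where 1 sham spot stands far below the rest. With that spot missing, 5 members were positive and 7 negative, with a median of -0.06. The genes that separated the groups were Dnajb9, Creld2 and Hspa5, with Herpud1 on its second probe, whereas the folding enzymes and lectin chaperones did not.

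Herpud1 sits in the membrane of the endoplasmic reticulum, helps to send misfolded protein to the proteasome and is known as a sensitive target of the stress response. Its dimmer probe had 2.68, 2.54, 2.80 and 2.51 in nephrectomized rats, against 3.32, 3.42, 3.45 and 3.16 in sham rats. The groups were well apart, and the SD within each was 0.13 (n = 4 rats each). Tested with every probe on its own, it fell by 0.70 (to 0.614 of the sham level, 95% interval 0.53 to 0.711, adjusted p = 0.00499 by limma over 23982 probes), where 3.24% of all probes passed and 0.901% passed downward. It had -0.76 on slide 1 and -0.65 on slide 2. With any 1 rat left out the log2 fold change stayed between -0.76 and -0.66 and the adjusted p between 0.00761 and 0.0222.

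The brighter probe of Herpud1 had 4.83, 4.74, 4.75 and 4.73 in nephrectomized rats, against 5.37, -0.32, 5.49 and 5.17 in sham rats. The nephrectomized rats lay below sham rats 1, 3 and 4, and sham rat 2 lay far below all of them. With that value in, the log2 fold change was 0.84 (95% interval 0.27 to 11.8-fold, adjusted p = 0.777 by limma). The spot had an intensity of 487 on that array and of 13127 to 30621 on the others, and the scanner software did not flag it. Of the 20 gene spots within 3 rows and 1 column of it, 11 (55%) were more than 8-fold below their median on the other arrays, against 0.0899% of all gene spots on that array and 0 of 20 on every other array. With the spot set as missing, a choice made after its value was seen, the brighter probe fell by 0.58 (adjusted p = 0.0133 by limma, where 3.6% of all genes passed), and without sham rat 2 as a whole it also fell by 0.58 (adjusted p = 0.0186), where 1.99% of all genes passed.

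**Figure D2:**
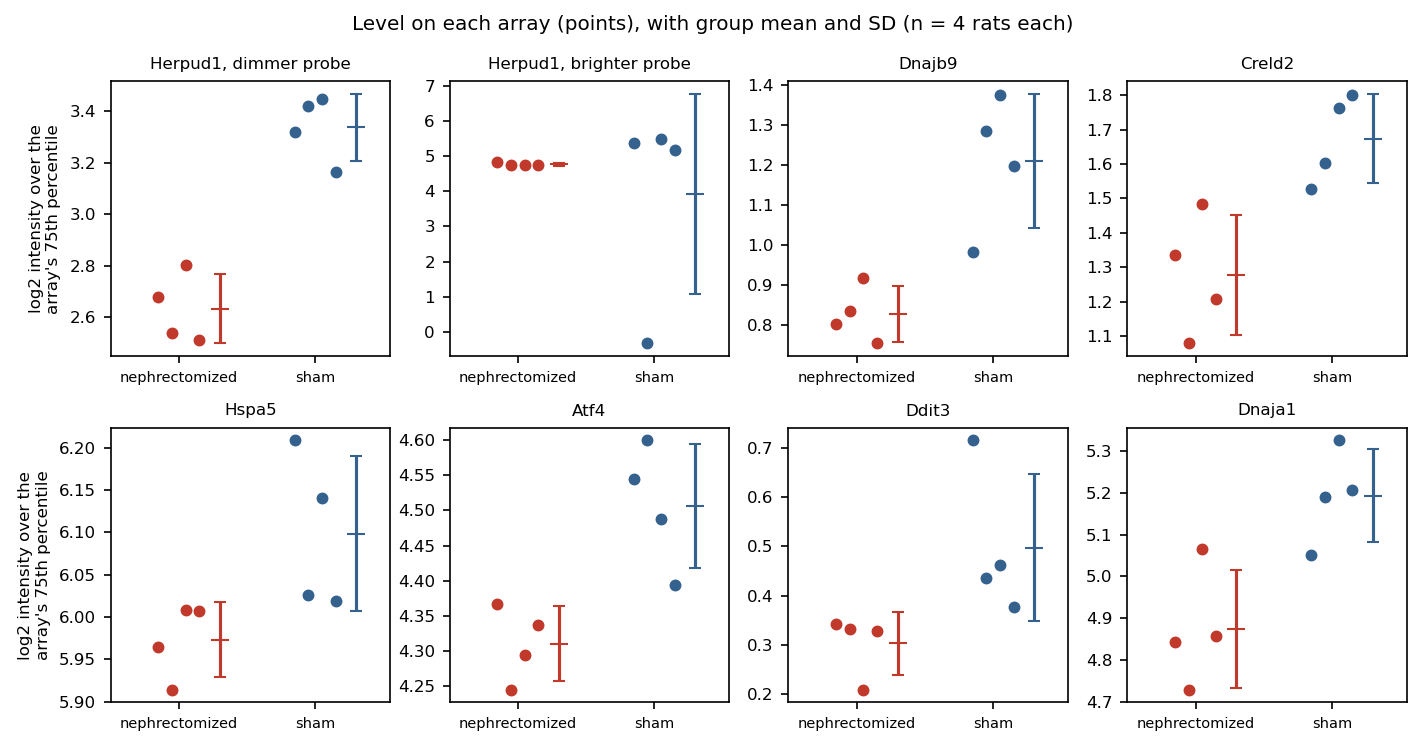
Level on each array (points, log2 intensity over the array's 75th percentile) of the 2 Herpud1 probes and of 6 other members, with nephrectomized rats left of sham rats and the group mean and SD beside them (n = 4 rats each). Sham rat 2 lies at -0.32 on the brighter Herpud1 probe and at 3.42 on the dimmer one, and in Dnajb9, Creld2, Hspa5, Atf4 and Ddit3 all nephrectomized rats lie below all sham rats.

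Dnajb9, also called ERdj4, is an Hsp40 co-chaperone of the endoplasmic reticulum and a target of spliced XBP1. It had 0.80, 0.84, 0.92 and 0.75 in nephrectomized rats, against 0.98, 1.29, 1.37 and 1.20 in sham rats. All nephrectomized rats were lower, and sham rat 1 was the nearest to them. The log2 fold change was -0.38 (0.767 of the sham level, 95% interval 0.664 to 0.884), and the adjusted p of 0.0597 by limma missed the threshold. Without sham rat 1, the array with the fewest probes above background, it was -0.46 and passed (adjusted p = 0.0174, where 3.62% of all genes passed). It also passed with an intensity trend and robust estimation (adjusted p = 0.0376, with 4.58% of all genes). With slide as a block it did not pass (adjusted p = 0.0648 by limma). Over all single rats left out the adjusted p ran from 0.0174 to 0.175. A second probe with 0.77, 0.38, 0.88 and 0.58 in nephrectomized rats, against 0.89, 1.16, 1.21 and 1.05 in sham rats, differed by -0.43 on the log2 scale (adjusted p = 0.114 over all probes).

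Creld2, a secreted disulphide isomerase-like protein that stress of the endoplasmic reticulum induces, followed the same order. It had 1.34, 1.08, 1.48 and 1.21 in nephrectomized rats, against 1.53, 1.60, 1.76 and 1.80 in sham rats. The nearest values were those of nephrectomized rat 3 and sham rat 1. The log2 fold change was -0.40 (0.759 of the sham level, 95% interval 0.645 to 0.895, adjusted p = 0.083 by limma), with -0.36 on slide 1 and -0.44 on slide 2. Without nephrectomized rat 3 it was -0.47 and just passed (adjusted p = 0.0495 by limma, where 3.23% of all genes passed). Over all single rats left out the adjusted p ran from 0.0495 to 0.217, and with slide as a block it was 0.0539.

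Hspa5, or BiP, is the main Hsp70 of the endoplasmic reticulum and holds the 3 sensors inactive. It had 5.96, 5.91, 6.01 and 6.01 in nephrectomized rats, against 6.21, 6.03, 6.14 and 6.02 in sham rats. The groups did not overlap, but sham rats 2 and 4 lay just above the highest nephrectomized rats. That is a log2 fold change of -0.13 (0.917 of the sham level, 95% interval 0.828 to 1.02, adjusted p = 0.368 by limma). Hsp90b1, the Hsp90 of the same compartment, had 4.01, 4.07, 4.20 and 4.05 in nephrectomized rats, against 4.10, 4.28, 4.31 and 4.16 in sham rats. These ranges overlapped, the log2 fold change was -0.13 (adjusted p = 0.391 by limma), and its second probe had -0.09.

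The remaining members of this compartment lay on both sides of 0. Sdf2l1, a partner of BiP, had 2.43, 2.40, 2.53 and 2.54 in nephrectomized rats, against 2.35, 2.25, 2.42 and 2.35 in sham rats. Its log2 fold change was 0.13 (1.09-fold, 95% interval 0.987 to 1.21, adjusted p = 0.352 by limma), with sham rat 3 inside the nephrectomized range. Pdia6, a disulphide isomerase, had 4.57, 4.61, 4.87 and 4.71 in nephrectomized rats, against 4.55, 4.52, 4.65 and 4.69 in sham rats, which is a log2 fold change of 0.08. The isomerases Pdia3 and Pdia4 had -0.04 and -0.08, the lectin chaperones Calr and Canx 0.08 and 0.06, and Dnajc3, an inhibitor of PERK, 0.02. For these 5 genes limma gave adjusted p values of 0.678 to 0.946. Of the genes with an ERSE in the promoter, Hspa5, Hsp90b1 and Creld2 had negative values on both slides, whereas Calr, Canx and Dnajc3 had -0.03, -0.01 and -0.004 on slide 1 and 0.19, 0.12 and 0.04 on slide 2.

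In the heat shock group, 0 of 11 measured members passed, where 3.59% of all genes did. Before adjustment, 0 were higher and 2 lower at a p of 0.05, where 7.6% of all genes were lower. In this group 4 members had positive and 7 had negative log2 fold changes, and the median was -0.05 (-0.02 on slide 1 and -0.02 on slide 2). No member of this group separated the rats completely on its brightest probe. The most negative value was that of Dnaja1, an Hsp40 that delivers clients to cytosolic Hsp70. It had 4.84, 4.73, 5.07 and 4.86 in nephrectomized rats, against 5.05, 5.19, 5.32 and 5.21 in sham rats. Only nephrectomized rat 3 reached into the sham range, just above sham rat 1. This gave a log2 fold change of -0.32 (0.801 of the sham level, 95% interval 0.695 to 0.924, adjusted p = 0.102 by limma), with -0.33 on slide 1 and -0.30 on slide 2.

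Hspa8, the Hsp70 that cells keep at all times, was read by 4 probes. Its brightest had 6.38, 6.12, 6.24 and 6.25 in nephrectomized rats, against 6.56, 6.46, 6.44 and 6.33 in sham rats. Nephrectomized rat 1 lay above sham rat 4, and the log2 fold change was -0.20 (0.87 of the sham level, 95% interval 0.77 to 0.984, adjusted p = 0.222 by limma). The other 3 probes gave log2 fold changes of -0.27 to -0.23. One of them separated the groups, with 5.91, 5.92, 6.11 and 5.93 in nephrectomized rats, against 6.21, 6.26, 6.18 and 6.18 in sham rats (adjusted p = 0.106 over all probes). All 4 probes thus had negative values, and 0 of them passed.

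Hspa1a, the inducible Hsp70, had -2.07, -1.93, -1.90 and -1.78 in nephrectomized rats, against -1.66, -1.51, -1.99 and -1.54 in sham rats. All sham rats but rat 3 lay above the nephrectomized rats. The difference was -0.24 on the log2 scale (0.845 of the sham level, 95% interval 0.705 to 1.01, adjusted p = 0.319 by limma), with -0.41 on slide 1 and -0.08 on slide 2. Its value is uncertain in identity, because Hspa1b encodes a nearly identical mRNA that the same probe can bind. Hsph1, an Hsp110 that recharges Hsp70, ranged from -0.38 to -0.05 in nephrectomized rats and from -0.32 to 0.21 in sham rats, a log2 fold change of -0.13.

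The cytosolic Hsp90 genes, which support kinases and steroid receptors, overlapped. Hsp90aa1 had 6.39, 6.50, 6.51 and 6.69 in nephrectomized rats, against 6.24, 6.68, 6.53 and 6.29 in sham rats. Its log2 fold change was 0.09, and its 4 probes lay between -0.08 and 0.10. Hsp90ab1 had 6.34, 6.65, 6.25 and 6.64 in nephrectomized rats, against 6.41, 6.62, 6.55 and 6.51 in sham rats, with a log2 fold change of -0.05. The dimmest of its 3 probes had -0.22 and separated the groups (adjusted p = 0.138 over all probes by limma).

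The mitochondrial chaperonin, made of Hsp60 rings with an Hsp10 lid, overlapped between groups in both of its genes. Hspd1, the ring, had 6.96, 6.88, 7.15 and 6.66 in nephrectomized rats, against 6.82, 6.94, 6.66 and 6.97 in sham rats (log2 fold change 0.06, with -0.07 to 0.06 over 4 probes). Hspe1, the lid, had 7.08, 7.0, 7.30 and 7.10 in nephrectomized rats, against 6.96, 7.16, 7.21 and 7.15 in sham rats. Its 95% interval was 0.872 to 1.15-fold around a log2 fold change of 0.0006. The small chaperone Hspb1 had a log2 fold change of 0.005, Bag3, a co-chaperone of selective autophagy, had -0.04, and Hsf1, the transcription factor of the response, had -0.06. Their adjusted p lay between 0.809 and 0.986 by limma. The genes with a heat shock element in the promoter had -0.32 (Dnaja1), -0.20 (Hspa8), -0.13 (Hsph1), 0.0006 (Hspe1) and 0.06 (Hspd1).

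**Figure D3:**
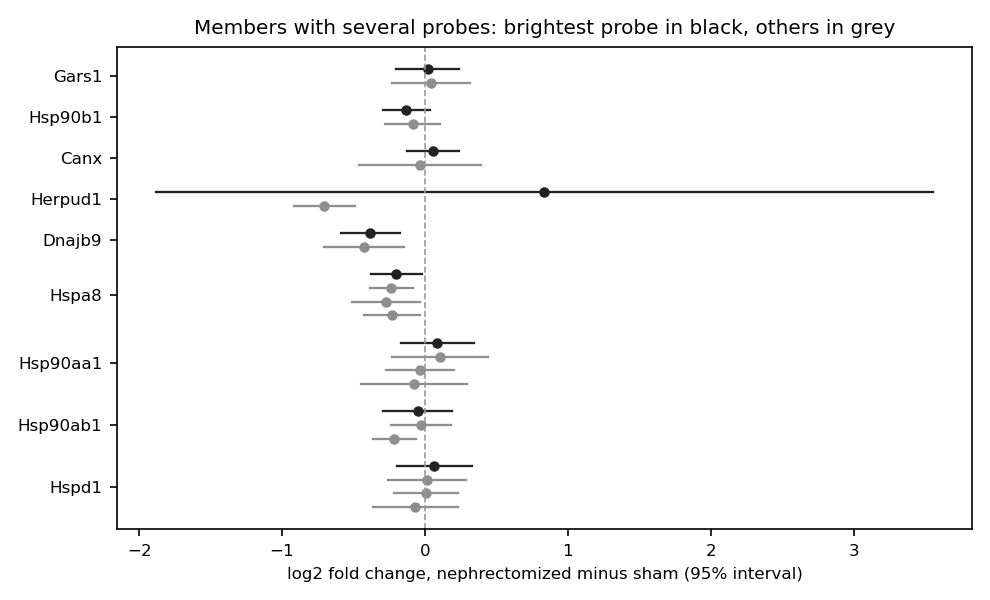
Log2 fold change, nephrectomized minus sham, with its 95% interval, for each probe of the 9 members read by several probes, the brightest in black and the others in grey (n = 4 rats per group). The 4 Hspa8 probes and both Dnajb9 probes lie below 0, and the Herpud1 probes lie at 0.84 and -0.70.

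Across the 9 members with several probes, 4 had probes of both signs, namely Canx, Herpud1, Hsp90aa1 and Hspd1. In the 3 besides Herpud1 the probes lay between -0.08 and 0.10. Array weights, which count nephrectomized rat 3 and sham rat 1 at 0.414 and 0.424 and nephrectomized rat 4 at 2.05, made 3 calls among the members. They were Dnajb9 (-0.47, adjusted p = 0.00779 by limma), Creld2 (-0.50, adjusted p = 0.0111) and Dnaja1 (-0.40, adjusted p = 0.0138), all lower after nephrectomy. Under those weights 10.9% of all genes passed in either direction, and 4.73% passed downward.

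The wider pathways were read from lists that do not include the members. Of 44 measured genes among 52 others of the ATF4 pathway, 1 passed upward and 0 downward, with a median log2 fold change of 0.01, where 2.57% of all genes passed upward and 1.02% downward. The call was Mthfd2, a mitochondrial folate enzyme, with -3.16, -3.44, -3.24 and -3.24 in nephrectomized rats, against -3.54, -4.38, -4.31 and -4.08 in sham rats. The groups did not overlap, but this probe was well above background in 4 of 4 nephrectomized and 0 of 4 sham rats. It entered the comparison through the nephrectomized rats alone, so no fold is given and the call is not taken as a rise. Its adjusted p by limma was 0.044 with the filter on dim probes and 0.151 without it. The other 2 probes of Mthfd2 were well above background in 4 of 4 nephrectomized rats and in 2 and 3 of 4 sham rats. They too entered through the nephrectomized rats alone and did not pass over all probes (adjusted p = 0.101 and 0.206 by limma). The call also ended with normexp (adjusted p = 0.06 by limma), with the slide as a block (0.0596, where 4.04% of all genes passed) and without any rat except sham rat 1 (0.0765 to 0.128). Without sham rat 1 there were 2 calls in this list, the other being Eif4ebp1, a translation repressor named here after its values were seen (adjusted p = 0.0493).

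Of 47 measured genes among 53 others of the endoplasmic reticulum, 0 passed in either direction with limma, where 3.59% of all genes did. The median was 0.01. Before adjustment, 1 was higher and 2 were lower at a p of 0.05, where 7.6% of all genes were lower and 17.7% passed in either direction. Ssr1, a subunit of the translocon-associated complex, had -0.22, -0.22, -0.13 and -0.24 in nephrectomized rats, against -0.43, -0.50, -0.41 and -0.44 in sham rats. All nephrectomized rats were higher, with a log2 fold change of 0.24 and an adjusted p of 0.0512 by limma. Ern1, which encodes IRE1, had -0.55, -0.25, -0.14 and -0.22 in nephrectomized rats, against 0.10, -0.34, 0.28 and 0.15 in sham rats. Sham rat 2 lay among the nephrectomized rats, and the log2 fold change was -0.34 (adjusted p = 0.268 by limma). Spcs3, a signal peptidase subunit, had -0.20 (adjusted p = 0.265) on its brightest probe and 0.11 on a second one, and neither passed.

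Of 43 measured genes among 48 other chaperones, 0 passed upward and 1 downward, against the same 2.57% and 1.02% of all genes, with a median of -0.03. Dnaja4, an Hsp40 related to Dnaja1, had 0.36, 0.27, 0.35 and 0.23 in nephrectomized rats, against 0.60, 0.88, 0.74 and 0.54 in sham rats. All nephrectomized rats were lower, and Dnaja4 fell by 0.39 (to 0.764 of the sham level, 95% interval 0.669 to 0.873, adjusted p = 0.0441 by limma). The call ended with slide as a block (adjusted p = 0.0529) and when any 1 rat was left out (0.0502 to 0.144), while the direction held in each of these.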

How the data were processed

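RNA was prepared with Qiagen's RNeasy Mini Kit and labelled with Agilent's Low Input Quick Amp reagents, per the labels' protocols. The deposited scanner files give a linear intensity for every spot, from which Agilent Feature Extraction 10.5.1.1 had removed background and spatial trend, per the file headers. A second table by the authors holds log2 values of 30448 probes. It equalled the log2 intensity scaled to the 75th percentile and centred per probe (r = 0.99998 across probes), with column medians of -0.0171 to 0.0150, and served as an alternative. How those probes were selected is unknown here.

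Here log2 of the processed intensity minus each array's 75th percentile over gene probes was used, without control or outlier-flagged spots. A probe was kept if every array of either group had it well above background (23982 of 41012). Accessions of all 41012 gene probes, without version, were matched to the GRCr8 gene table (18713 probes, 14400 symbols), because the files used here carried no gene names. An accession without a symbol stood as a gene of its own, so the tested genes are 9925 symbols and 9940 accessions. The brightest probe stood for a gene. The comparison used limma 3.58.1 under R 4.3.3, with lmFit and a two-sided eBayes test without covariates, over 19865 genes, with Benjamini-Hochberg adjustment and a threshold of 0.05, and the script was tested on simulated data. Probes beyond the brightest were tested over 23982 probes.

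The members and lists were chosen with earlier results of these data known. Values on every array are given for members that passed, whose groups did not overlap, with the 4 highest mean intensities, the 3 smallest p, or the 2 largest rises or falls in each arm. Asns and Sars1 and the second probes were added after their values were seen. Of the other pathway genes, those that passed or otherwise the 3 with the smallest p are named. The alternatives were other scalings and background correction (normexp, offset 50, on median spot intensity, since no mean intensity was in the files used here), the deposited table, other filters and probe rules, an intensity trend, array weights, replicate or slide blocks, single slides, each rat left out, and a threshold of 0.01. With 4 arrays per group, the number of arrays limits precision.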

Additional observations from a re-analysis of the deposited data

Results flagged for a closer look

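Within each group of 4 rats, the highest or lowest value was compared with the spread of the group. Over 84 such groups, 6 held a value that stood far from the other 3, and chance flags about 1 in 20. For Ddit3, nephrectomized rat 3 lay low at 0.208, against 0.329 to 0.342 in the others of its group. For Aars1, nephrectomized rat 3 lay high at 2.98, against 2.61 to 2.67. The same rat lay high on 2 of the dimmer Hspa8 probes, at 6.11 against 5.91 to 5.94 and at 0.749 against 0.424 to 0.474. For Canx, sham rat 4 lay low at 3.145, against 3.33 to 3.35. For the brighter Herpud1 probe, sham rat 2 lay low at -0.324, against 5.17 to 5.49 in the other sham rats.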

How the results depend on the processing

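Each result was recomputed under 23 other settings, 8 of which left out 1 rat, and under the missing Herpud1 spot, added after the data were seen. The counts of called members were 0 to begin with, so they could only stay or grow. Every member called under another setting was lower after nephrectomy. In the endoplasmic reticulum group the count was 1 with every probe tested, 1 with the intensity trend, 1 with the spot missing, 2 with array weights and 0 to 1 with a rat left out. In the heat shock group it was 1 with array weights. The ATF4 arm count was 0 throughout. The heat shock median was -0.018 on slide 2 alone. Among other ATF4 pathway genes (1 called) the count was 2 with quantile normalization, with every probe, with the intensity trend or with slide as a block, 6 with array weights, 0 with normexp, without the filter on dim probes, within slide 1 or slide 2 or at a threshold of 0.01, and 0 to 2 with a rat left out. Among other endoplasmic reticulum genes it was 1 with array weights. Among other chaperones (1 called) it was 3 with array weights and 0 without the filter, with slide as a block, within either slide, at 0.01 or with any rat left out (0 to 0). Of all genes (714 called), 282 passed without the filter, 2157 with array weights, 0 within slide 1, 141 within slide 2, 260 at 0.01 and 341 to 720 with a rat left out. Rats of the same number also share a slide, and the labels state no pairing beyond the number. Their deviations from the group means correlated at 0.10, 0.01, 0.10 and -0.02. Nephrectomized rats 2, 3 and 4 correlated best with a sham rat of another number. With the replicate block 296 of all genes passed, and 0 of the other ATF4 genes and 0 of the other chaperones. The dimmer Herpud1 probe kept its call in that replicate block (adjusted p = 0.0275 by limma), with slide as a block (0.0101), with normexp (0.0027), with quantile normalization (0.00359) and without the filter (0.0272).

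Of the 32 members, 17 kept their sign in every setting and 15 did not. On slide 1 alone the log2 fold change was -0.0904 for Aars1, -0.028 for Calr, -0.0072 for Canx, -0.0038 for Dnajc3, -0.014 for Hsp90aa1, -0.022 for Hspe1 and 0.00056 for Bag3. On slide 2 alone it was 0.0632 for Psat1, -0.59 for Herpud1 and -0.016 for Hspb1. With array weights it was -0.017 for Aars1, -0.078 for Gars1, -0.028 for Dnajc3, 0.018 for Hsp90ab1, -0.074 for Hspe1 and -0.0068 for Hspd1. With normexp it was -1.62e-05 for Dnajc3, -0.012 for Hspe1, -0.042 for Hspd1 and -0.011 for Hspb1. The missing spot gave -0.58 for Herpud1. With a rat left out, values ran from -0.18 to 0.016 for Psat1, -0.063 to 0.059 for Aars1, -0.055 to 0.081 for Gars1, -0.14 to 0.037 for Pdia3, -0.58 to 1.36 for Herpud1, -0.054 to 0.072 for Dnajc3, -0.11 to 0.024 for Hsp90ab1, -0.061 to 0.042 for Hspe1, -0.013 to 0.15 for Hspd1, -0.062 to 0.053 for Hspb1 and -0.11 to 0.014 for Hsf1. The cause of these changes was not tested, apart from the smaller number of rats that single slides and left-out rats bring.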

Other observations

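Several regulators of the ATF4 pathway that are not among the 40 members separated the groups completely and did not pass in the main comparison. They were chosen after their values were seen. Cebpb, a transcription factor that pairs with ATF4, had -1.64, -1.83, -2.17 and -2.02 in nephrectomized rats, against -1.01, -1.17, -1.18 and -1.62 in sham rats (log2 fold change -0.67, adjusted p = 0.0545 by limma). With slide as a block its adjusted p was 0.0175, where 4.04% of all genes passed. Nupr1, a stress-induced nuclear protein, had -1.72, -0.75, -0.84 and -0.68 in nephrectomized rats, against -0.35, 0.11, -0.14 and -0.47 in sham rats (log2 fold change -0.79, adjusted p = 0.123). With slide as a block the adjusted p of Nupr1 was 0.139. Jdp2, a repressor of the same factor family as ATF3, differed by -0.40 on the log2 scale (adjusted p = 0.0791). With slide as a block its adjusted p was 0.00993, again beside 4.04% of all genes. It was dim, at -3.74 to -3.37 in nephrectomized rats and -3.26 to -3.05 in sham rats. The dimmest probes well above background lay at -4.79 to -3.70 over the arrays. With array weights the adjusted p by limma was 0.0231 for Cebpb, 0.0377 for Jdp2 and 0.071 for Nupr1, where 10.9% of all genes passed. With 1 rat left out it ran from 0.0261 to 0.159 for Cebpb, and Jdp2 and Nupr1 did not pass.

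Other genes of that list separated in the opposite direction. Atf3, a factor induced downstream of ATF4, had 0.09, -0.44, -0.15 and -0.30 in nephrectomized rats, against -0.64, -0.49, -0.61 and -0.54 in sham rats (log2 fold change 0.37, adjusted p = 0.12 by limma). Eif4ebp1, which restrains translation, had 0.31 (adjusted p = 0.116), and Eif2ak2, the eIF2 kinase PKR, had 0.28 (adjusted p = 0.117). In all, 6 of the 44 measured genes of the list separated upward and 4 downward, where 7.56% and 5.07% of all genes did. Among chaperones outside the 40 members, Serpinh1, the collagen chaperone Hsp47, had 3.34, 3.18, 3.32 and 3.31 in nephrectomized rats, against 3.13, 2.91, 3.10 and 3.14 in sham rats (log2 fold change 0.22, adjusted p = 0.156 by limma). Of the 43 measured genes of that chaperone list, 1 separated upward and 1 downward, against the same 7.56% and 5.07% of all genes.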
